A study of Mus musculus with 36 samples.

Results

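The genes described are 6 members of the sodium-potassium pump family, the beta subunit genes *Atp1b1*, *Atp1b2*, *Atp1b3* and *Atp1b4* and the FXYD regulator genes *Fxyd1* and *Fxyd5*. They were taken by name from a table of counts for 55416 genes and had been chosen by their levels (RPM, reads per 1000000) over the 6 groups of the study, so every difference between groups given for them is a description and carries no test. Of the 6 genes, 5 passed the filter on low counts, which kept the 13995 genes that reached 1 RPM in 12 or more of the 36 libraries, and *Atp1b4* did not, with 2 such libraries.

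The sodium-potassium pump moves sodium out of the cell and potassium in at the cost of ATP, and in muscle it restores the gradients that each action potential runs down. Its alpha subunit binds ATP and carries the ions, its beta subunit is a glycoprotein that brings the alpha subunit to the plasma membrane, and small FXYD membrane proteins tune its ion affinity and rate. ATP1B4 departs from this role in placental mammals, where it is a muscle protein of the inner nuclear membrane. FXYD1 (phospholemman) is a target of kinases in heart and skeletal muscle, and FXYD5 (dysadherin) also affects cell adhesion.

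The samples were C2C12 myotubes, the fused muscle cells that a mouse myoblast cell line gives on differentiation. On day 3 of differentiation each well was transfected with an antisense locked nucleic acid (LNA), either a negative control (control) or an LNA against the long non-coding RNA *Tug1* (*Tug1* KD), so all groups had been transfected and *Tug1* KD rests on a single LNA sequence. On day 4 the myotubes were left unstimulated with electrodes in the medium (Rest), or received electrical pulse stimulation (EPS) for 3 h at 13 V and 66 Hz with collection right at its end (EPS 0h) or following a recovery of 3 h (EPS 3h). The 6 groups held 6 libraries each, 1 well per library. For each LNA there is a single Rest group with no recovery time given. The part of added time in culture in EPS 3h against Rest was not tested. The study describes 2 independent experiments of 3 wells per group, and replicates 1 to 3 and replicates 4 to 6 are treated here as 2 sets, a split seen over all genes in every group and not given in the labels.

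Each library held between 17005079 and 24181167 counts (median 19439667.5), and 3 counts made 0.154 RPM in a library of median depth. *Tug1* fell by 0.83 on the log2 scale with *Tug1* KD at Rest (SE 0.171, FDR 0.000915), where its 6 libraries had 24.0 to 33.3 RPM against 38.6 to 58.3 in control. It also fell, with libraries that overlapped, at EPS 0h (log2FC -0.57, SE 0.169, FDR 0.0178) and at EPS 3h (log2FC -0.51, SE 0.168, FDR 0.0414). All 7 myotube markers listed were expressed, with 11303 to 17728 RPM in sum per library, and edgeR called none of them with *Tug1* KD in any state, with 0 at Rest, 1 at EPS 0h and 0 at EPS 3h at an unadjusted p under 0.05.

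Promoter sequences were available from RefSeq for 5 of the 6 genes (table build GRCm38.p6). *Atp1b2* had no entry, so its promoter was not examined. The sequences were windows of 250 bases before to 50 bases after a start, and each matched GRCm39 exactly 1 time at the coordinates given here. The 4 windows shown are those of the 2 beta subunit genes with the highest levels, of the beta subunit gene with the lowest level, and of *Fxyd5*. Capitals mark the E-box (CANNTG on either strand), the motif that myogenic basic helix-loop-helix factors bind.
Atp1b1 promoter, chr1:164285875-164286174, minus strand: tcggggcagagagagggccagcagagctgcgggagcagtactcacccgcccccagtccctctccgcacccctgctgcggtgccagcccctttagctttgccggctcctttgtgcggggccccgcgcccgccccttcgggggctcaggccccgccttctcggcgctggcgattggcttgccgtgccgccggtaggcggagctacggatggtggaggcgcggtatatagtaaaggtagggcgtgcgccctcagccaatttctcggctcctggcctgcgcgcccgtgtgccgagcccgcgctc
Atp1b3 promoter, chr9:96246435-96246734, minus strand: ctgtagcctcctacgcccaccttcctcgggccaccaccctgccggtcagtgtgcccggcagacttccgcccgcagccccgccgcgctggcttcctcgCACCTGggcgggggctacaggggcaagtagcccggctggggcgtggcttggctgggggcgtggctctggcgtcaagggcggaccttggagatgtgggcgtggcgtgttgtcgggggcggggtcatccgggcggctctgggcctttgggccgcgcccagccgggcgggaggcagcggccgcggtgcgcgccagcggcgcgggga
Atp1b4 promoter, chrX:37404749-37405048, plus strand: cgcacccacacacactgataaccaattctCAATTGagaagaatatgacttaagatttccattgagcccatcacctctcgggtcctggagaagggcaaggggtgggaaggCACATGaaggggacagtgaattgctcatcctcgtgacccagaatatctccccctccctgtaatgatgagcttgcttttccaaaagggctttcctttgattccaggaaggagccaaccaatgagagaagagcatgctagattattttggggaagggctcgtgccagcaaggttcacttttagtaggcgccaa
Fxyd5 promoter, chr7:30741707-30742006, minus strand: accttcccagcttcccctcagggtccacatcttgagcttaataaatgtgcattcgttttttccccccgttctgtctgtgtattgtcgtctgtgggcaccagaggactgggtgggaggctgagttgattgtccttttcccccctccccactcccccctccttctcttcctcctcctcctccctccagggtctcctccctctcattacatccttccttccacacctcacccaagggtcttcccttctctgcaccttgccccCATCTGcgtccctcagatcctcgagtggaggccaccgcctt

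The window of *Atp1b1* held 0 E-boxes, that of *Atp1b3* 1, that of *Atp1b4* 2 and that of *Fxyd5* 1, where 72.3% of all 32851 promoters held at least 1. The GC box GGGCGG, on either strand, stood 6 times in the *Atp1b3* window and 2 times in the *Atp1b1* window and in none of the other windows shown, against 35.7% of all promoters with at least 1. The G and C content was 76.0% for *Atp1b3*, 71.0% for *Atp1b1*, 57.3% for *Fxyd5* and 49.0% for *Atp1b4*. A second *Atp1b3* window, downstream of the one shown, and the *Fxyd1* window held 1 and 0 E-boxes. These matches describe letters in a window, not sites in use.

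Compared per kilobase (kb) of exon, the beta subunit transcripts of Rest control myotubes were mostly *Atp1b3*. Its level was 37.2 ± 1.90 RPM per kb (SD, n = 6), that of *Atp1b1* 9.04 ± 1.86, that of *Atp1b2* 2.82 ± 1.14 and that of *Atp1b4* 0.00435 ± 0.00339. Of the sum of the 4 genes, *Atp1b3* made 75.9% ± 5.36, *Atp1b1* 18.4% ± 3.34, *Atp1b2* 5.69% ± 2.16 and *Atp1b4* 0.00888% ± 0.00689. With *Tug1* KD at Rest the shares were 82.4% ± 2.90 for *Atp1b3*, 16.5% ± 2.43 for *Atp1b1* and 1.05% ± 0.559 for *Atp1b2*. The *Atp1b2* share ran from 3.48% to 7.83% in Rest control libraries and from 0.484% to 1.69% in Rest *Tug1* KD libraries, with no overlap. Lengths change these shares, since per kb of coding sequence *Atp1b2* made 10.7% of the sum in Rest control and 2.09% in Rest *Tug1* KD myotubes.

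**Figure D1:**
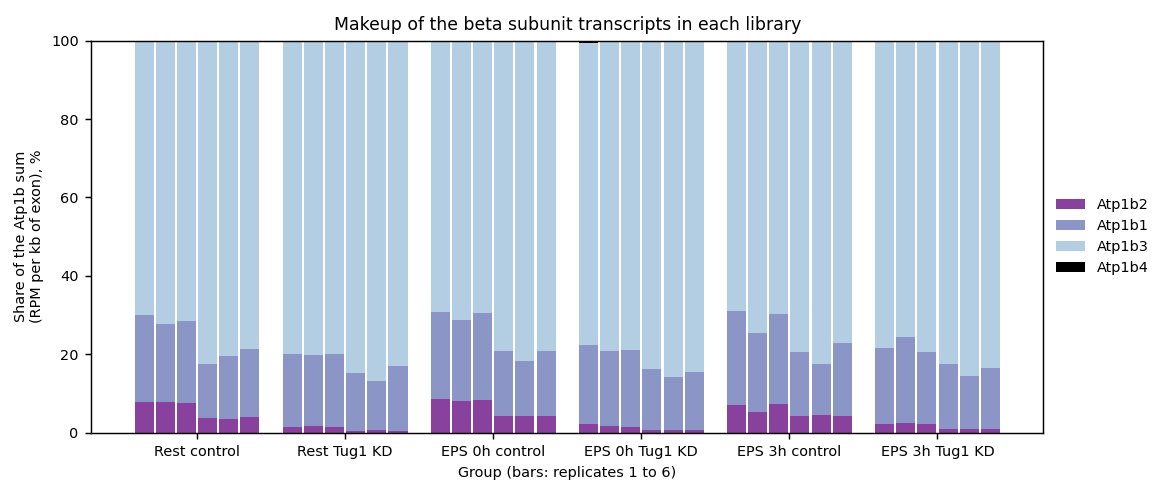
Share of each beta subunit gene in the summed level of the 4 genes (percent of RPM per kb of exon) in each of the 36 libraries, as stacked bars by group and replicate. *Atp1b3* takes the main part of every bar, the *Atp1b2* share at Rest is 3.48% to 7.83% in control and 0.484% to 1.69% with *Tug1* KD, and *Atp1b4* is hardly visible.

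The sum of the 4 *Atp1b* genes was 49.0 ± 1.72 RPM per kb in Rest control myotubes (SD, n = 6) and lay between 47.1 and 53.3 RPM per kb in all 6 group means. Of the FXYD genes in Rest control, *Fxyd5* had 2.41 ± 0.884 RPM per kb and *Fxyd1* 0.382 ± 0.133.

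**Figure D2:**
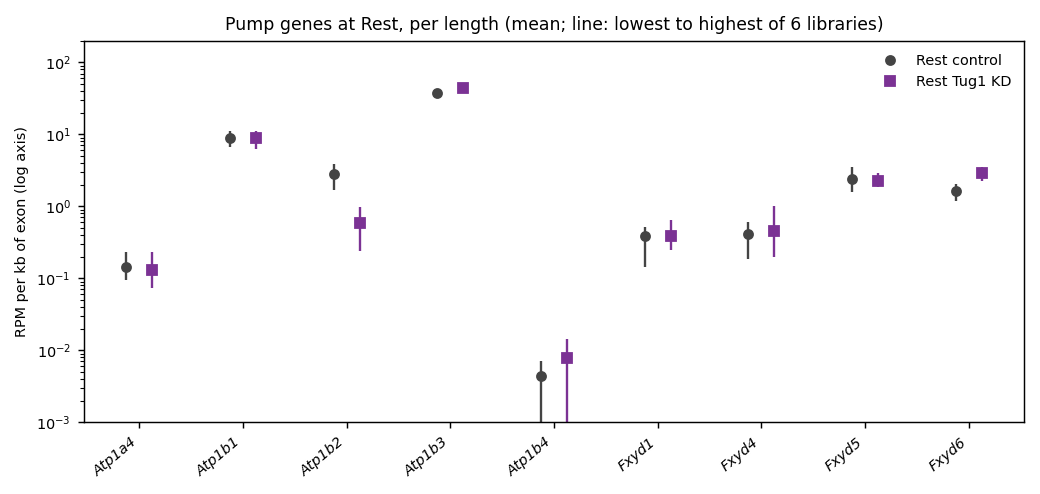
Level per kb of exon (RPM per kb, log axis) of 9 pump genes at Rest, with the mean as a point and a line from the lowest to the highest of 6 libraries, for control and *Tug1* KD. The lines of *Atp1b2* and *Fxyd6* do not overlap, with *Atp1b2* at 1.68 to 3.93 in control and 0.240 to 0.972 with *Tug1* KD, and the *Atp1b4* lines run down to libraries with 0 counts, drawn at the lower edge.

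*Atp1b2* (chromosome 11, 69487651 to 69496851, minus strand, GRCm39) encodes the beta subunit that is best known from glia, where it was described as an adhesion molecule. Its level was lower with *Tug1* KD in every state. At Rest the 6 control libraries had 11.2, 18.9 and 26.4 RPM (lowest, median, highest) and the 6 *Tug1* KD libraries 1.61, 3.93 and 6.52. Each *Tug1* KD library lay under each control library, in the stimulated states too. At EPS 0h the values were 11.7, 21.1 and 31.3 RPM in control and 2.33, 3.95 and 7.04 with *Tug1* KD, and at EPS 3h 12.4, 16.6 and 22.7 against 2.89, 5.02 and 7.89. In means ± SD this was 18.9 ± 7.66 against 3.90 ± 2.33 RPM at Rest, 21.2 ± 10.1 against 4.32 ± 2.20 at EPS 0h and 17.2 ± 4.69 against 5.23 ± 2.54 at EPS 3h (n = 6 each). The fitted log2FC was -2.29 (SE 0.388) at Rest, -2.31 (SE 0.387) at EPS 0h and -1.71 (SE 0.381) at EPS 3h, that is 4.88-fold, 4.95-fold and 3.28-fold lower. The samples are bulk RNA, so fewer cells that make a transcript and less of it per cell cannot be told apart.

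Most of the spread of *Atp1b2* within a group lay between the 2 sets of replicates, each of which was narrow. In Rest control, replicates 1 to 3 had 25.6, 26.4 and 25.8 RPM and replicates 4 to 6 had 12.2, 11.2 and 12.3. In Rest *Tug1* KD they had 5.73, 6.52 and 5.75 RPM and 1.65, 2.12 and 1.61. The lowest set of control libraries therefore stood above the highest set of *Tug1* KD libraries. Within replicates 1 to 3 alone, the log2FC for *Tug1* KD was -2.11 (SE 0.117) at Rest, -2.26 (SE 0.117) at EPS 0h and -1.50 (SE 0.115) at EPS 3h. Within replicates 4 to 6 alone it was -2.73 (SE 0.132), -2.34 (SE 0.128) and -2.15 (SE 0.127). Over all 6 libraries, the log2FC of stimulation against Rest was 0.17 (SE 0.356) at EPS 0h and -0.14 (SE 0.357) at EPS 3h in control. With *Tug1* KD it was 0.15 (SE 0.397) and 0.43 (SE 0.395), and the libraries overlapped in all 4 comparisons. Within the sets, replicates 1 to 3 first, EPS 3h with *Tug1* KD gave 0.35 (SE 0.121) and 0.70 (SE 0.147). EPS 0h with *Tug1* KD gave 0.08 (SE 0.122) and 0.40 (SE 0.148). In control the sets gave 0.23 (SE 0.107) and 0.01 (SE 0.112) at EPS 0h, and -0.26 (SE 0.108) and 0.13 (SE 0.111) at EPS 3h.

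Markers of other cells were looked at beside *Atp1b2*. Among 5 fibroblast and adipocyte markers, 2 passed the filter, and *Pdgfra*, a receptor of mesenchymal progenitors, fell with *Tug1* KD at Rest (log2FC -0.57, SE 0.144, FDR 0.00632), at EPS 0h (log2FC -0.80, FDR 0.000205) and at EPS 3h (log2FC -0.69, FDR 0.00162). The summed level of the 5 ran from 126.7 to 167.0 RPM in Rest control and from 104.1 to 190.4 RPM in Rest *Tug1* KD, and *Dcn*, which made most of it, had a log2FC of 0.01 (FDR 0.991) at Rest, -0.09 (FDR 0.846) at EPS 0h and -0.17 (FDR 0.708) at EPS 3h. Of the other markers *Thy1* and *Fabp4* had at most 0.383 RPM in any library and *Adipoq* at most 1.67 RPM. Among 5 markers of undifferentiated or dividing cells, 0 were called with *Tug1* KD at Rest or at EPS 0h, and *Ccnb1*, a mitotic cyclin gene, was called lower at EPS 3h (log2FC -0.39, SE 0.127, FDR 0.0406), with 2 lower at an unadjusted p under 0.05 in each state. Their sum at Rest was 114.3 to 155.4 RPM in control and 107.4 to 135.6 in *Tug1* KD. The part of these cells in the *Atp1b2* values was not tested.

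**Figure D3:**
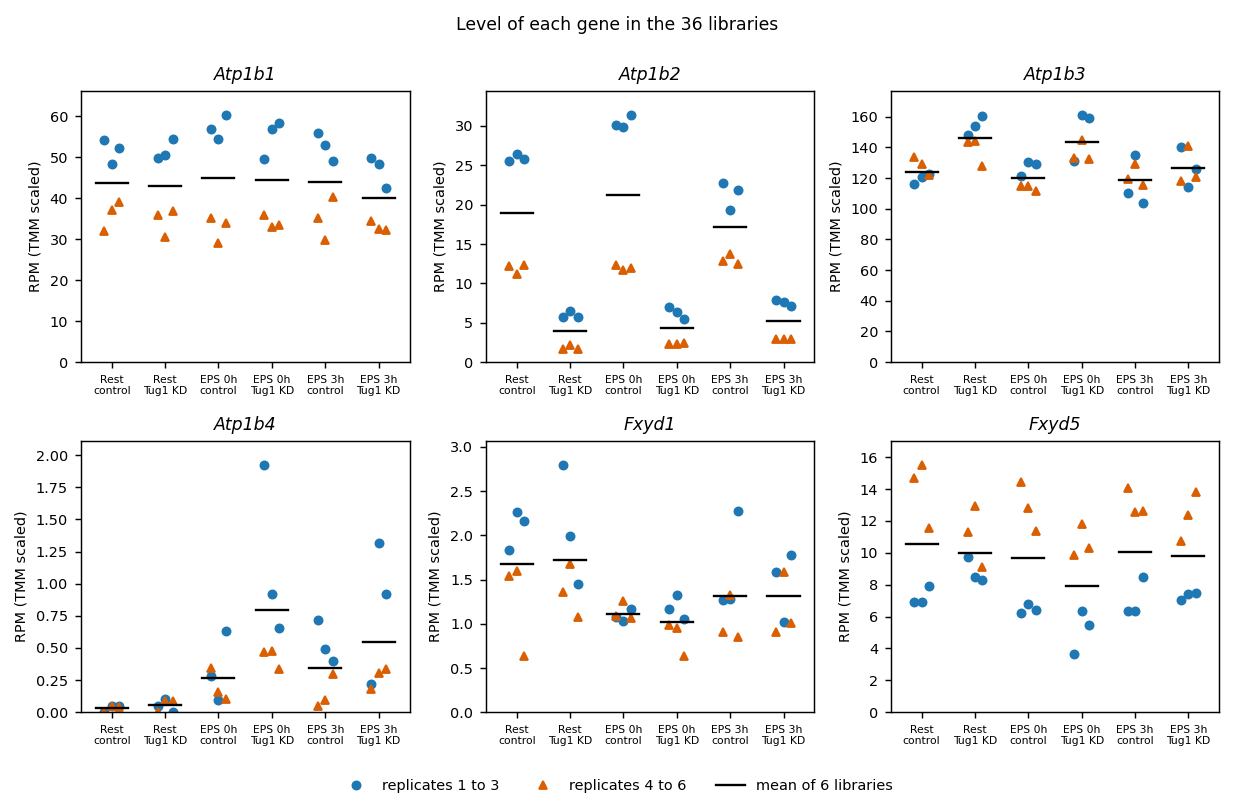
Level (RPM after TMM scaling) of each of the 6 genes in all 36 libraries by group, with circles for replicates 1 to 3, triangles for replicates 4 to 6 and a bar for the mean of 6. *Atp1b2* separates control from *Tug1* KD in each state and the 2 sets within each group, *Atp1b1* and *Fxyd5* separate mainly by set, and *Atp1b4* is at 0 to 2 counts in every Rest library.

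*Atp1b3* (chromosome 9, 96214674 to 96246814, minus strand), a broadly expressed beta subunit, had the highest level of the 6 genes. At Rest the libraries had 115.9, 122.4 and 133.7 RPM in control and 127.7, 146.2 and 160.5 with *Tug1* KD. All 6 *Tug1* KD libraries were above the control mean of 124.1 ± 6.35 RPM, with a mean of 146.3 ± 11.1, though the ranges overlapped. At EPS 0h the ranges did not overlap, with 111.3, 118.1 and 130.4 RPM in control and 131.1, 138.8 and 160.9 with *Tug1* KD. At EPS 3h they overlapped widely, with means of 118.7 ± 11.8 and 126.7 ± 11.4 RPM. The log2FC for *Tug1* KD was 0.24 (SE 0.0756), 0.25 (SE 0.0757) and 0.09 (SE 0.0757) in the 3 states. The Rest value was uneven between sets, with a log2FC of 0.36 (SE 0.109) in replicates 1 to 3 and 0.11 (SE 0.0877) in replicates 4 to 6. Between Rest and EPS 3h the log2FC was -0.06 (SE 0.0756) in control and -0.21 (SE 0.0756) with *Tug1* KD, where 6 of 6 libraries were under the Rest mean. Scaling by library size alone moved the median of all genes by -0.168 in control and -0.164 with *Tug1* KD in these comparisons, and gave -0.23 and -0.37 for *Atp1b3*.

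*Atp1b1* (chromosome 1, 164264678 to 164285957, minus strand), the most widely expressed beta subunit, had nearly the same mean in all groups. The means ± SD were 43.8 ± 9.01 and 43.0 ± 9.74 RPM at Rest, 45.0 ± 13.6 and 44.6 ± 11.8 at EPS 0h, then 43.9 ± 10.4 and 40.0 ± 8.01 at EPS 3h, control first. No neighbours in the order of the 6 means differed by more than the SD of either group. The log2FC ran from -0.13 (SE 0.194, *Tug1* KD at EPS 3h) to 0.05 (SE 0.193, EPS 0h in *Tug1* KD) over the 7 comparisons, and all ranges overlapped. On the opposite strand the exons of *Nme7* cover 587 bases and those of the lncRNA *Gm32391* 290 bases of the *Atp1b1* exons. The libraries were stranded but the strand setting of the counting is not given in the sources used here, so reads in these stretches may belong to either gene.

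*Atp1b4* (chromosome X, 37405026 to 37425663, plus strand) was close to absent at Rest. No Rest library held more than 2 counts, 4 of the 12 held 0, and the sums were 4 counts over 6 control libraries and 7 over 6 *Tug1* KD libraries. After stimulation the 24 libraries held 1 to 33 counts, and 20 of them were above the highest Rest library. In EPS 0h control the counts were 5, 2, 13, 8, 3 and 2 in replicates 1 to 6, and in EPS 0h *Tug1* KD they were 33, 16, 13, 9, 11 and 8. At EPS 3h they were 13, 8, 7, 1, 2 and 6 in control and 4, 22, 16, 3, 6 and 6 with *Tug1* KD. The means ± SD were 0.270 ± 0.204 and 0.796 ± 0.586 RPM at EPS 0h, then 0.341 ± 0.252 and 0.546 ± 0.463 RPM at EPS 3h. Control and *Tug1* KD overlapped at both time points. As the Rest libraries lie under the 3 counts taken as the floor of detection, no fold is given, and the gene entered no test with the filter.

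Per kb of exon, both FXYD genes were lower than *Atp1b3* and *Atp1b1*, and their ranges overlapped between groups in all 7 comparisons. *Fxyd1* (chromosome 7, 30751092 to 30756677, minus strand) had 0.637, 1.72 and 2.26 RPM in Rest control (lowest, median, highest) and 1.07, 1.56 and 2.79 in Rest *Tug1* KD. At EPS 0h it had 1.03, 1.08 and 1.26 RPM in control and 0.635, 1.02 and 1.32 with *Tug1* KD. All 6 libraries of each EPS 0h group lay under the Rest mean of their LNA, but the ranges overlapped with Rest. The log2FC from Rest to EPS 0h was -0.58 (SE 0.256) in control and -0.76 (SE 0.259) with *Tug1* KD, and to EPS 3h -0.35 (SE 0.254) and -0.38 (SE 0.255). In control the EPS 0h value was larger in replicates 1 to 3 (log2FC -0.94, SE 0.296), against -0.14 (SE 0.330) in replicates 4 to 6. With *Tug1* KD the sets gave -0.80 (SE 0.297) and -0.68 (SE 0.338). For *Tug1* KD against control, the log2FC of *Fxyd1* was 0.04, -0.14 and 0.01 in the 3 states, with an SE of 0.247 to 0.268. With 15 to 54 counts per library, it was the least abundant of the 5 genes that passed the filter.

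*Fxyd5* (chromosome 7, 30732147 to 30741906, minus strand) lies 9.19 kb from *Fxyd1*, and *Fxyd7* stands between them. Its means ± SD were 10.6 ± 3.89 and 9.98 ± 1.82 RPM at Rest, 9.68 ± 3.66 and 7.91 ± 3.19 at EPS 0h, then 10.1 ± 3.43 and 9.81 ± 2.90 at EPS 3h, control first, and no neighbours in this order differed by more than their SD. The log2FC for *Tug1* KD was -0.09 (SE 0.266) at Rest, -0.29 (SE 0.269) at EPS 0h and -0.04 (SE 0.269) at EPS 3h. At Rest it was positive in replicates 1 to 3 (log2FC 0.28, SE 0.169) and negative in replicates 4 to 6 (log2FC -0.32, SE 0.147). From Rest to EPS 0h with *Tug1* KD the sets gave -0.76 (SE 0.173) and -0.06 (SE 0.149). The exons of the microRNA gene *Mir7050* cover 60 bases of *Fxyd5* exons on the same strand.

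**Figure D4:**
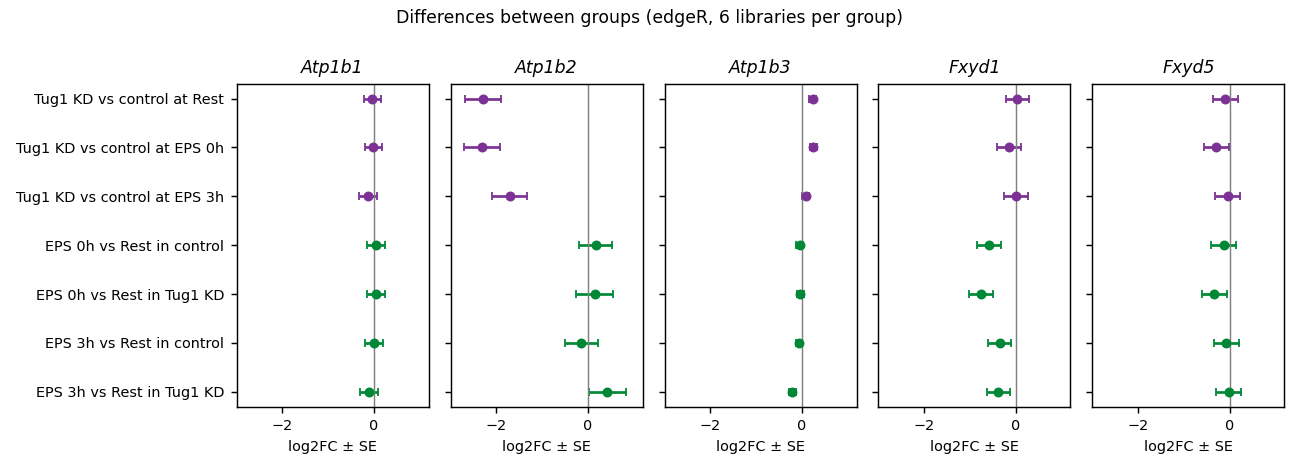
Fitted log2FC with its SE (edgeR, 6 libraries per group) of the 5 genes that passed the filter, for *Tug1* KD against control in 3 states (purple) and EPS against Rest (green). Only *Atp1b2* in the *Tug1* KD comparisons lies beyond 1 on the log2 scale, at -2.29, -2.31 and -1.71.

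The number of the 5 genes past an FDR of 0.05 is given beside the share of all 13995 genes past it, and nothing is read from it. With *Tug1* KD at Rest, 2 were called (*Atp1b3* higher, *Atp1b2* lower) where 10.0% of all genes were, at EPS 0h the same 2 genes were called where 14.3% were, and at EPS 3h *Atp1b2* alone where 11.5% were. *Atp1b2* was also the gene without overlap in all 3 states, with shares of 8.07%, 7.94% and 4.62% of all genes without overlap, and *Atp1b3* was without overlap at EPS 0h alone. In EPS 0h against Rest in control, edgeR called 0 of the 5, with 1 at an unadjusted p under 0.05, DESeq2 and limma-voom called 0, and 38.9% of all genes were called. A replicate block, with the replicate number as a term, called *Fxyd1* lower there. In EPS 3h against Rest in control, edgeR called 0, with 0 at an unadjusted p under 0.05, DESeq2 and limma-voom called 0, and 52.0% of all genes were called. With *Tug1* KD, *Fxyd1* was called lower at EPS 0h (45.6% of all genes), where the replicate block called *Fxyd5* lower as well, and *Atp1b3* was called lower at EPS 3h (52.1%). In none of these 4 EPS comparisons were the libraries of any of the 5 genes without overlap, where 22.0%, 28.9%, 22.5% and 29.8% of all genes were, in the order in which the 4 are named here. For the interaction of EPS and *Tug1* KD, edgeR, DESeq2 and limma-voom called 0 of the 5 at either time point. By edgeR 0 were at an unadjusted p under 0.05, and 0.00% of all genes were called at EPS 0h and 0.00715% at EPS 3h. These fits have no term for the replicate set, whose spread enters the SE. For *Atp1b2* the interaction log2FC at EPS 3h was 0.57 (SE 0.532), so the 0 calls do not show that an interaction was absent.

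For *Atp1b1* and *Fxyd5* the fitted difference between the sets of replicates was larger in size than that in any of the 7 comparisons of groups, and for *Atp1b2*, *Atp1b3* and *Fxyd1* it was not. These differences are within groups and so were not used to name the genes, but the sets were taken from how the libraries part over all genes, and no p is given for them. With the group as a covariate, the log2FC of replicates 4 to 6 against 1 to 3 was -1.24 (SE 0.0667) for *Atp1b2*, -0.61 (SE 0.0443) for *Atp1b1*, -0.46 (SE 0.128) for *Fxyd1*, 0.82 (SE 0.0734) for *Fxyd5* and -0.05 (SE 0.0418) for *Atp1b3*. *Atp1b1* and *Atp1b2* were lower in replicates 4 to 6 without overlap in 6 of 6 groups, *Fxyd5* was higher without overlap in 5 of 6, and over all genes 4.33% parted in this way in 6 of 6 groups. At an FDR of 0.05, 4 of the 5 genes were called between sets, where 58.3% of all genes were, which describes the split and tests nothing. In Rest control, *Atp1b1* had 48.4 to 54.1 RPM in replicates 1 to 3 and 32.0 to 39.0 in replicates 4 to 6, and *Fxyd5* had 6.91 to 7.95 and 11.6 to 15.5. Depth overlapped between the sets, with 17005079 to 20704318 counts in replicates 1 to 3 and 18024659 to 24181167 in replicates 4 to 6.

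Over the 36 libraries the levels of the 5 genes varied together in part, on the scale of log2 RPM, and the libraries share both sets and groups. Pearson's r was -0.84 between *Atp1b1* and *Fxyd5*, 0.51 between *Atp1b1* and *Atp1b2* and -0.46 between *Atp1b2* and *Atp1b3*. The genes most like *Atp1b2* were *Ampd1*, the AMP deaminase of skeletal muscle (r = 0.926), *Cmbl* (r = 0.919) and *Serpinb6b* (r = 0.914). Those most like *Atp1b1* were *Mybpc1*, which encodes a myosin-binding protein of slow muscle (r = 0.924), *Mest* (r = 0.902) and *Frmd4b* (r = 0.884). Among those most like *Fxyd5* were *Aplp1* (r = 0.943) and *R3hdml* (r = 0.938). Likeness was weaker for *Atp1b3*, with *Sec22a* (r = 0.849), *Tmem123* (r = 0.840) and *Gpr89* (r = 0.832), and for *Fxyd1*, with *Ndufb3* (r = 0.826), *Vamp5* (r = 0.791) and *Tnnt3*, the fast troponin T gene (r = 0.773).

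Of 9 other pump genes listed, 6 passed the filter and could be tested, and those described here are *Fxyd4*, *Fxyd6* and *Atp1a4*. With *Tug1* KD, *Fxyd6* rose in each state. *Fxyd6*, a FXYD protein known from the nervous system, had 14.2 RPM on average in Rest control and 24.7 in Rest *Tug1* KD (log2FC 0.80, SE 0.130, FDR 4.3e-05), with 10.1 to 17.4 and 19.2 to 29.8 RPM and no overlap. Its log2FC was 0.55 (FDR 0.00318) at EPS 0h and 0.49 (FDR 0.0107) at EPS 3h, higher than the control mean in 6 of 6 libraries at both.

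After stimulation of control myotubes, *Fxyd4*, known from the kidney collecting duct, had 1.78 RPM at EPS 0h and 2.20 at EPS 3h, from 0.913 at Rest. The log2FC was 0.95 (SE 0.295) and 1.26 (SE 0.293). *Fxyd4* reached 1 RPM in 6 of 12 Rest libraries and in 23 of 24 stimulated ones. It thus passed the filter mainly through the groups where it is high, and no test of EPS against Rest is given. *Atp1a4*, the alpha subunit of sperm, had 0.532 ± 0.180 RPM in Rest control and 2.11 ± 0.970 at EPS 3h in control. As 0 of its 12 Rest libraries and 11 of its 12 EPS 3h libraries reached 1 RPM, the filter kept it for its stimulated level, and no test of that difference is given.

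With *Tug1* KD, *Fxyd4* had 0.995 RPM at Rest, 1.82 at EPS 0h and 2.09 at EPS 3h. The log2FC against Rest was 0.85 and 1.05, the ranges overlapped in both comparisons, and no test is given. The *Atp1a4* level was 0.481 ± 0.215 RPM at Rest and 1.98 ± 0.679 at EPS 3h with *Tug1* KD, again without a test. For *Fxyd6* the log2FC at EPS 0h was -0.49 (FDR 0.00251) with *Tug1* KD and -0.24 (FDR 0.154) in control, and the difference between them did not pass (interaction log2FC -0.25, FDR 1). The interaction called 0 of the 6 tested at either time point by edgeR, DESeq2 and limma-voom. By edgeR 0 were at an unadjusted p under 0.05. None of these fits has a term for the replicate set, so the 0 calls do not show that an interaction was absent. Over all genes, edgeR called 0.00% for the interaction at EPS 0h and 0.00715% at EPS 3h. *Fxyd2*, *Fxyd3* and *Fxyd7*, of kidney, epithelia and brain, had at most 8 counts in any library, and none of the 3 genes of the related proton-potassium pump passed the filter.

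Genes of other ion transport and regulators of the pump were listed beside the pump genes. Of 13 tested genes for sodium, potassium and chloride channels and carriers, 1 fell and 1 rose at Rest, the latter *Abcc9*, the sulfonylurea receptor of muscle potassium channels (log2FC 0.95, SE 0.291, FDR 0.0298). The median log2FC of the 13 was -0.02, against -0.03 over all genes. Of 10 kinases, ubiquitin ligases and caveolins that act on the pump or on ion carriers, *Cav3*, the caveolin of muscle, rose at Rest (log2FC 0.52, SE 0.155, FDR 0.0231), with a median log2FC of 0.13. At EPS 3h against Rest in control, 2 of the 13 transport genes rose and 6 fell, and among those that rose was *Kcnj2*, the inward rectifier of the resting potential (log2FC 0.96, SE 0.307, FDR 0.00905). The median log2FC of the 13 was -0.32, against -0.02 over all genes. Of the 10 regulators, 4 rose and 2 fell there, with a median log2FC of 0.17.

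These counts stand beside the shares of all genes called. With *Tug1* KD, 5.54% of all genes rose and 4.47% fell at Rest, 8.25% and 6.07% did at EPS 0h, then 6.38% and 5.11% at EPS 3h. Among the 13 transport genes, 1 rose and 1 fell with *Tug1* KD at EPS 0h, and 1 rose and 0 fell at EPS 3h. Among the 10 regulators, 4 rose and 0 fell with *Tug1* KD at EPS 0h, with a median log2FC of 0.20. At EPS 3h, 2 of the regulators rose and 1 fell. After stimulation of control myotubes 20.5% of all genes rose and 18.4% fell at EPS 0h, where 1 transport gene rose and 5 fell and 2 regulators rose and 2 fell, and 26.1% rose and 25.9% fell at EPS 3h. After stimulation of *Tug1* KD myotubes 24.4% of all genes rose and 21.2% fell at EPS 0h, with 3 transport genes up and 5 down and 4 regulators up and 3 down. At EPS 3h these shares were 26.2% and 25.9%, with 2 transport genes up and 4 down and 4 regulators up and 2 down.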

How the data were processed

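Poly-A RNA of 36 wells of C2C12 myotubes was sequenced as stranded 150-bp pairs. The authors trimmed reads with fastp 0.14.1, aligned them with STAR 2.5 to GRCm39 and deposited whole-number counts per gene, not normalized. The counting tool and its strand setting are not given in the sources used here. The 36 single-library tables held the same counts as the matrix. The 1492 genes with an identifier but no name held 0.0327% of counts and stayed in the fits.

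Groups and replicate numbers were read from the library titles. Counts were fitted with edgeR 4.0.16 in R 4.3.3 (TMM, robust quasi-likelihood test, all 6 groups), after keeping genes with at least 1 RPM in 12 of 36 libraries, with Benjamini-Hochberg FDR over 13995 genes and a threshold of 0.05. RPM are counts per 1000000 of the TMM-scaled library. Levels per kb used the union of exons in the GENCODE annotation of GRCm39. This is not the Ensembl release that the authors name for their alignment. The lengths may therefore differ from those of the exons counted, and the levels and shares per kb depend on them. The correlations used log2 RPM with a prior count of 2. The SE of a log2FC is its size over the square root of the F statistic. Alternatives were DESeq2 1.42.0, limma-voom (limma 3.58.1), library size alone, no filter, a replicate block, a replicate set block and each set alone. edgeR, limma-voom and DESeq2 were also run on simulated counts, in fits with a term for the replicate set. The main fit has no such term, so the simulation does not check it.

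Libraries of a group differed by more than counting error (the smallest chi-square, divided by its degrees of freedom, was 4.316). Wells may be technical replicates within an experiment. The main fit has no term for the set, so its p-values measure the spread over all 6 wells of a group, with the difference between sets. Replicate numbers were taken as pairs where each pair of same-numbered libraries correlated above 0.1 after centring within groups, which held for *Tug1* KD at EPS 0h and EPS 3h, both EPS comparisons in control and EPS 0h in *Tug1* KD. The centring left the difference between the sets in place, so this correlation cannot tell pairs by number from a shared set. The genes and lists were chosen with earlier results of these data known. Genes named outside the 6 are the pump genes with 3 or more counts in a library, the 2 transport or regulator genes with the largest called change at 5 RPM or more in each of 2 comparisons, the 3 most alike genes per member, overlapping genes and *Tug1*. *Abcc9*, *Pdgfra* and other genes beside counts of 5 or fewer were named after their values were seen. Some genes that these rules name are not reported here.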

Additional observations from a re-analysis of the deposited data

Results flagged for a closer look

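In 36 sets of 6 libraries, 1 for each of the 6 genes in each group, the highest and the lowest library were compared with the nearest other library, and 2 stood apart by more than Dixon's critical value for 6 samples, a share of their range. Chance sets about 5% of such sets apart. *Atp1b4* had 1.92 RPM (33 counts) in replicate 1 of EPS 0h *Tug1* KD, where the next library had 0.919 RPM and the gap took 0.633 of the range. *Fxyd1* had 2.27 RPM (40 counts) in replicate 3 of EPS 3h control, where the next had 1.32 RPM and the gap took 0.666 of the range. No cause was tested.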

How the results depend on the processing

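No log2FC of the 5 genes that was called reversed. Over the fits, that of *Atp1b2* with *Tug1* KD ran from -2.73 to -2.11 at Rest. It ran from -2.35 to -2.26 at EPS 0h and from -2.15 to -1.50 at EPS 3h. The 5 genes were chosen by these values, so the ranges and the counts of calls that follow describe the fits and support nothing. With *Tug1* KD at Rest the count of the 5 genes called went from 2 to 1 (*Atp1b2*) with library size alone, with no filter, and in replicates 1 to 3 or 4 to 6 alone, and at EPS 0h from 2 to 1 with no filter and in replicates 1 to 3. In control it went from 0 to 1 at EPS 0h with library size alone (*Fxyd1*), no filter (*Atp1b4*) and replicates 1 to 3 (*Fxyd1*), and at EPS 3h from 0 to 1 with library size alone (*Atp1b3*) and no filter (*Atp1b4*). With *Tug1* KD it went from 1 to 2 with no filter and in replicates 1 to 3 at EPS 0h and at EPS 3h, and to 0 in replicates 4 to 6 at EPS 0h. The replicate block and the replicate set block gave 1 in place of 0 at EPS 0h in control, and 2 in place of 1 at EPS 0h (*Fxyd1*, *Fxyd5*) and at EPS 3h (*Atp1b2* higher, *Atp1b3* lower) in *Tug1* KD. At EPS 3h in *Tug1* KD and in *Tug1* KD at Rest the lowest correlation of same-numbered libraries was 0.077 and -0.077, so the numbers are not taken as pairs there, and the block changed no other call of these 5 genes. The other pump genes called with *Tug1* KD went from 2 to 1 with no filter at Rest and EPS 3h and in replicates 1 to 3 at EPS 0h and EPS 3h, and with EPS in *Tug1* KD from 4 to 0 in replicates 4 to 6 at EPS 0h and from 4 to 8 with no filter at EPS 3h, where *Fxyd2*, *Fxyd3* and *Fxyd7*, at 0 counts in all Rest *Tug1* KD libraries, are among the 8. The 4 at EPS 0h include *Fxyd4*, and the 4 at EPS 3h include *Fxyd4* and *Atp1a4*, kept by the filter mainly for their stimulated levels. These counts of EPS calls therefore support nothing. In the main fit 45.6% of all genes were called at EPS 0h in *Tug1* KD and 52.1% at EPS 3h. The no-filter fits test more genes and the fits to 1 set have 3 libraries per group, and the causes of the other shifts were not tested. Between sets, where calls only describe the split, the count stayed 4 or 5. Depth limits *Atp1b4*, whose Rest libraries hold 0 to 2 counts, and the shares of the beta subunits depend on the gene length used.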

Other observations

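Several pump genes of other tissues, left out of the tests by the filter, held more counts at EPS 3h than at Rest. How many other genes near 0 counts did so was not counted. *Fxyd3* had 0 counts in all 12 Rest libraries, and its sum over 6 libraries was 20 counts in control and 6 in *Tug1* KD at EPS 0h, then 17 in control and 26 in *Tug1* KD at EPS 3h. *Atp4a*, the catalytic subunit of the gastric proton-potassium pump, had 0 and 1 counts in sum at Rest, 36 and 17 straight after EPS, and 12 and 15 at EPS 3h, control first. In the same order *Fxyd7* had 3 and 0 counts at Rest, 5 and 1 straight after EPS, and 11 and 18 at EPS 3h. Of the 5 counts, 4 came from replicate 5. *Fxyd2* had 0 counts in both Rest groups, 1 and 0 straight after EPS, and 16 and 5 at EPS 3h. Of the 16 counts, 8 came from replicate 3. *Atp4b* and *Atp12a* had 1 to 4 counts in sum in every group, at Rest and after EPS.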
